A study of Mus musculus with 6 samples.

Results

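The 10 genes described here are 3 tissue inhibitors of metalloproteinases (Timp1, Timp2 and Timp3) and 7 matrix metalloproteinases (Mmp2, Mmp8, Mmp9, Mmp12, Mmp13, Mmp14 and Mmp19). They were taken by symbol, and all 10 had a row in each of the 6 tables, among 19349 symbols. Both groups were male C57BL/6J mice bought at 8 weeks of age and fed a high-fat diet (HFD) for 24 weeks, a diet model of nonalcoholic steatohepatitis (NASH). In the last 8 weeks they received vehicle (DMSO) or ginkgetin, a biflavone of Ginkgo biloba leaves, at 10 mg/kg/day by the intragastric route. Liver non-parenchymal cells (LNPCs) were sequenced as single cells in droplets on the 10X Genomics Chromium platform, with 3 libraries per group. Whether each library came from 1 mouse is not given in the sources used here, so p-values measure the spread between libraries.

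MMPs are zinc-dependent proteases that cut collagens, elastin, gelatin and other matrix proteins, and many of them also process cytokines and cell surface proteins. They are made as inactive precursors and are blocked by the TIMPs, which bind the active site. In the injured liver, hepatic stellate cells (HSCs) are known as a main source of Timp1 and Mmp2, and macrophages as a source of Mmp12 and Mmp13.

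The deposited tables held 33168 barcodes and between 13128697 and 61796882 unique molecular identifiers (UMIs, 1 per captured RNA molecule) per library, and 27544 cells passed a filter of 250 to 5000 genes detected per cell. The study's methods set these limits on UMIs, which would keep 16821 cells and was run as an alternative. Under it the genes called over all cells went from 1822 to 0 and those in Kupffer-like cells from 762 to 21, so the calls below hold for the wider set of cells. Replicate 3 of both groups stood apart: it had the highest median depth of its group (8412 UMIs per cell for vehicle and 6262 for ginkgetin), it shared at most 1 barcode with any library of replicates 1 and 2, and most of its cells formed clusters of their own. The libraries of replicates 1 and 2 shared 21 to 66 barcodes with each other, and the 2 libraries of replicate 3 shared 2. Cells were grouped by clustering without the 10 genes and named from marker lists. Stellate-like cells (183 in all) had a UMI of Lrat in 91.3% of cells, against 1.08% of other cells. Endothelial-like cells (7972) had Kdr in 95.2%, macrophage-like cells (3837) had C1qa in 99.3%, and neutrophil-like cells (38) had S100a8 in 94.7%. Fibroblast-like cells (56) had Dpt in 94.6%. Endothelial-like cells made up 9.84% to 20.6% of the vehicle and 31.2% to 48.6% of the ginkgetin libraries, while macrophage-like cells made up 19.5% to 26.3% and 2.95% to 15.015%. Levels are given as CPM, the UMIs of a gene summed over the cells of a class in a library, divided by all UMIs of that class in the library and scaled to 1e6. A gene was called changed when edgeR's quasi-likelihood test gave an adjusted p under 0.05 (Benjamini-Hochberg, over all genes tested) and a fold over 2, and the fold is ginkgetin over vehicle. Intervals and the floor of 3 UMIs that a count of 0 allows cover counting error only. Groups are said not to overlap where every library compared of a group lies above every library of the other. An exact permutation test cannot give such a split a p under 0.1 for 3 against 3 libraries, or under 0.2 for 2 against 3. The share of all genes so split was not computed. In sums over all cells, fewer cells of a type and less RNA per cell cannot be told apart.

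Mmp13, Mmp12 and Mmp8 lie on chromosome 9 (GRCm38.p6) at chr9:7272514-7283333, chr9:7344397-7360461 and chr9:7558429-7568486. The promoters of Mmp13 and Mmp12 are shown because both genes were called lower in Kupffer-like cells. Each sequence is from RefSeq on GRCm38.p6, runs 5′ to 3′ on the plus strand from 250 bases before to 50 bases after an annotated start, and has the AP-1 consensus TGAGTCA, or its reverse complement TGACTCA, in capitals. The Mmp13 window is chr9:7272264-7272563 and the Mmp12 window, the downstream of 2 listed starts, is chr9:7347124-7347423.
Mmp13: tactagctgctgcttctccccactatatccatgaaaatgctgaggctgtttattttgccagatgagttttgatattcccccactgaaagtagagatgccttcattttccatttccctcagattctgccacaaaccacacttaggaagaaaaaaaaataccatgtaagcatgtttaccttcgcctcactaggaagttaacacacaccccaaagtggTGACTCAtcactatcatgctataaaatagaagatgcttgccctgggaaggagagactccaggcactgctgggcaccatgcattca
Mmp12: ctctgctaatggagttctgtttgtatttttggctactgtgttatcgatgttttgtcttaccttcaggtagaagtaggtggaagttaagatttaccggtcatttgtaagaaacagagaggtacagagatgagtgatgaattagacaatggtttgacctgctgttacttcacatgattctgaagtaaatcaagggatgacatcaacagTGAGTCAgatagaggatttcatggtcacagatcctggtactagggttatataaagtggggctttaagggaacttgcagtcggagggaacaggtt
The motif began 35 bases before the Mmp13 start and 44 bases before the Mmp12 start. It was held by 1709 of 32851 promoters of this length (5.2%), and by those 2 genes among the 7 members with a listed promoter. The upstream Mmp12 start, Mmp8, Timp1, Timp2, Timp3 and Mmp14 had no match in the window, which says only that these letters are not there.

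**Figure D1:**
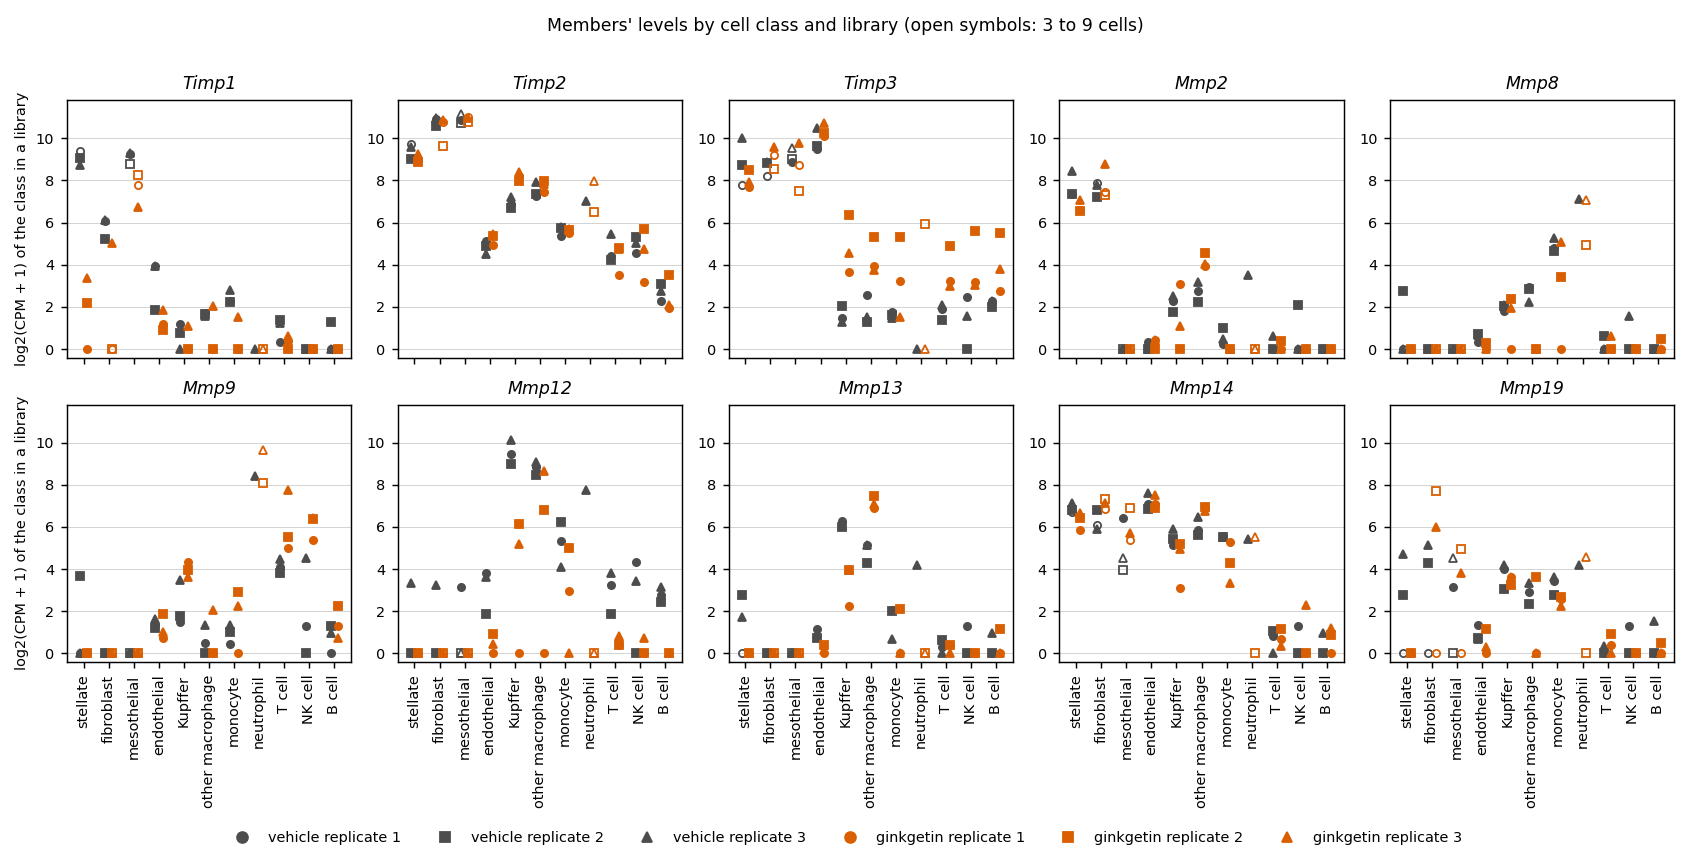
Level of each gene by cell class (x axis) and library, as log2(CPM + 1) on the y axis, with vehicle in grey, ginkgetin in orange, symbols for replicates and open symbols for 3 to 9 cells. Timp3 was highest in endothelial-like cells, Mmp12 and Mmp13 in Kupffer-like and other macrophage-like cells, and Timp1 in stellate-like and mesothelial-like cells, where the ginkgetin stellate-like points lie at 0 to 9.46 CPM.

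Timp1, the inhibitor most often linked to fibrosis, fell in stellate-like cells. Its level was 538 and 422 CPM in vehicle replicates 2 and 3, and 678 CPM in vehicle replicate 1, which held only 6 stellate-like cells and did not enter the test. The ginkgetin libraries had 0, 3.49 and 9.46 CPM, from 0, 1 and 3 UMIs in 12, 65 and 37 cells. All 3 ginkgetin libraries lay far under all vehicle libraries, and the 3 UMIs that a count of 0 allows would have been 56.6 CPM in ginkgetin replicate 1. The log2 fold change was -6.33 ± 0.58 SE (n = 2 and 3, adjusted p = 0.0233 by edgeR). Of 5115 genes tested in stellate-like cells, Timp1 was the only gene called (0.0196%), and 1 of 5 members tested.

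The number of libraries limits this call, and it could not be checked against doublets. Dropping the cells whose doublet score lay in the top 5% removed all 25 stellate-like cells of vehicle replicate 2. The vehicle libraries then held 3, 0 and 23 such cells, and the ginkgetin libraries 12, 58 and 23, so no test could be run. The part of doublets in the vehicle Timp1 level, and of RNA from other cell types in the stellate-like levels of both groups, was not tested. The adjusted p (edgeR) was 0.2845 without ginkgetin replicate 1 and 0.562 without ginkgetin replicate 2, with log2 fold changes of -6.20 and -5.96, and Timp1 was called without ginkgetin replicate 3 (0.0461). Leaving out vehicle replicate 2 or 3 leaves 1 vehicle library, which is then assumed to vary like the ginkgetin libraries, and Timp1 was called there too (0.0022 and 0.0021). With the replicate number as a block (replicate block) the adjusted p was 4.9e-19, and 3.26% of genes were called. Ginkgetin replicate 1 has no vehicle partner in that block and adds nothing to the group difference. With so few libraries left to measure the spread, this p-value adds little to the fit without the block. After each cell was thinned to 1000 UMIs, Timp1 was found in 14.4% and 21.2% of stellate-like cells of vehicle replicates 2 and 3, and in 0%, 0.235% and 0.796% for ginkgetin. Without thinning the shares were 32.0% and 71.1% against 0%, 1.54% and 8.11%, and the exact permutation test of either share gave p = 0.2, the smallest that 2 against 3 libraries allow. The median depth was 6449 and 11547.5 UMIs for these vehicle libraries and 4234 to 9315 for ginkgetin. In replicate 3 alone the log2 ratio of the CPM was -5.48, and all stellate-like cells of every library belonged to 1 cluster.

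Mesothelial-like cells, the lining cells of the liver surface, carried Timp1 in both groups, at 615, 444 and 624 CPM for vehicle and 220.2, 300.2 and 104 CPM for ginkgetin. The 2 groups did not overlap there either, but each library had only 4 to 14 of these cells and no test was made. Fibroblast-like cells had 36.7 to 68.2 CPM for vehicle and 0, 0 and 31.7 CPM for ginkgetin, on 3 to 22 cells per library. Dropping the highest doublet scores left 0, 1 and 0 fibroblast-like cells for vehicle and 0, 3 and 0 for ginkgetin. The values of this class were thus not checked against doublets for any member. Endothelial-like cells had 2.61 to 14.3 CPM against 0.887 to 2.64 CPM. Over all kept cells Timp1 was at 7.09, 9.01 and 8.38 CPM for vehicle and 2.04, 0.875 and 1.99 CPM for ginkgetin, giving a log2 fold change of -2.64 ± 0.37 (SE) by edgeR (adjusted p = 0.0072). Stellate-like cells held 17.7%, 56.4% and 50.8% of the Timp1 UMIs in the vehicle libraries, and in vehicle replicate 1 mesothelial-like (30.4%) and endothelial-like cells (21.9%) held more. For ginkgetin, stellate-like cells held 4.26%, from 94 ginkgetin UMIs in all. The sources of these 94 differed between libraries, with 66.7%, 50% and 16.0% in mesothelial-like and 16.7%, 40.0% and 46.0% in endothelial-like cells of ginkgetin replicates 1, 2 and 3.

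Timp3, which binds the matrix and also inhibits ADAM proteases, had most of its UMIs in endothelial-like cells. Endothelial-like cells held 87.1% of its UMIs in the vehicle libraries and 94.1% in the ginkgetin libraries. Their level was 727, 796 and 1455 CPM for vehicle and 1089.8, 1229.5 and 1679.6 CPM for ginkgetin. The groups overlapped, with vehicle replicate 3 above ginkgetin replicates 1 and 2, and the log2 fold change was 0.30 ± 0.25 SE (adjusted p = 0.684 by edgeR). Other classes carried it too, at 608.93 CPM in fibroblast-like, 549.34 in mesothelial-like and 540.39 in stellate-like cells over all libraries. The endothelial-like cluster led by Fabp4 and Lyve1 had 628.15 CPM, and the other endothelial-like clusters 972.35 to 2622.54 CPM. Within the endothelial-like class the cluster led by Edn1 and Vwf had the highest level among clusters with 5 or more cells in replicates 1 and 2 of both groups, 1278 and 1405 CPM for vehicle replicates 1 and 2 and 2155 and 1748 CPM for ginkgetin replicates 1 and 2.

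Different clusters filled the endothelial-like class in the 2 groups. A cluster led by Fabp4 and Lyve1 held 84.7% and 82.1% of the class in vehicle replicates 1 and 2, while a cluster led by Ehd3 held 48.67% and 48.35% and a cluster led by Wnt2 held 44.67% and 39.08% of it in ginkgetin replicates 1 and 2. Over all kept cells Timp3 was at 86.7, 84.9 and 131 CPM for vehicle and 302, 525 and 609.8 CPM for ginkgetin, without overlap (log2 fold change 1.91 ± 0.27 SE by edgeR, adjusted p = 0.0072). The endothelial-like share of the cells also differed between the groups, as given above, so level and makeup cannot be told apart there. Leaving out vehicle replicate 1 or vehicle replicate 2 ended the call (adjusted p by edgeR 0.0528 and 0.0567).

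In stellate-like cells Timp3 stood at 207.5, 356 and 243 CPM for ginkgetin against 421 and 1019.9 CPM for vehicle, without overlap (log2 fold change -1.48 ± 0.50 SE by edgeR, adjusted p = 0.604). Vehicle replicate 1, with 6 cells, had 221 CPM, inside the ginkgetin range. Timp3 was called higher in Kupffer-like cells, at 11.5, 82.3 and 22.8 CPM for ginkgetin against 1.82, 3.11 and 1.43 CPM (log2 fold change 3.84 ± 0.73 SE by edgeR, adjusted p = 0.0250). The same direction was seen in cells that should lack it, since T cell-like cells had 8.35, 29.0 and 7.06 CPM against 2.75, 1.63 and 3.28 CPM, and B cell-like cells had 5.81, 44.4 and 13.1 CPM against 3.85, 2.95 and 3.89 CPM. The summed level of 15 endothelial markers moved alike, at 1134, 2242 and 1265 CPM in the ginkgetin Kupffer-like cells against 335, 340 and 410.0 CPM, and at 239 to 994 CPM in T cell-like cells against 81.0 to 102 CPM. Ginkgetin replicate 2 was the highest of the 6 libraries in all of these values. After thinning, a UMI of Timp3 was found in 0.121% to 0.256% of vehicle and 0.77% to 9.04% of ginkgetin Kupffer-like cells, against 0.151% to 0.387% and 0.718% to 3.13% in T cell-like cells. The part of free endothelial RNA in the Timp3 difference outside endothelial-like cells was not tested.

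Timp2, which inhibits MMPs and also assists Mmp14 in activating the Mmp2 precursor, was highest in mesothelial-like and fibroblast-like cells, at 1704 to 2294 CPM and 784 to 1986 CPM per library. Stellate-like cells followed with 464 to 855 CPM, and their groups overlapped (log2 fold change -0.38 ± 0.39 SE by edgeR, adjusted p = 0.927). In Kupffer-like cells Timp2 stood at 119, 101 and 147 CPM for vehicle and 298, 253 and 339 CPM for ginkgetin, without overlap. The fit gave a log2 fold change of 0.88 ± 0.21 SE (adjusted p = 0.0414 by edgeR), under the fold limit and therefore not called. The scaling of the fit lowered every Kupffer-like log2 fold change by 0.41 relative to the CPM. With cells thinned to 1000 UMIs, Timp2 was found in 8.89% to 13.1% of vehicle and 20.1% to 29.6% of ginkgetin Kupffer-like cells. Without thinning the order of the means was the opposite, 60.1% against 45.9%, with a median depth of 6571.5 to 20327 UMIs for vehicle and 1881 to 2215 for ginkgetin Kupffer-like cells, and 58 cells of ginkgetin replicate 3 and 1 of vehicle replicate 3 fell under 1000 UMIs and were left out of the thinned share. Over all cells Timp2 was at 79.1, 93.0 and 124 CPM for vehicle and 49.8, 56.1 and 92.2 CPM for ginkgetin, also under the fold limit (log2 fold change -0.92, edgeR adjusted p = 0.0249).

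Mmp12, the macrophage elastase, had the largest log2 fold change of the 10 members over all cells. Its level was 215.5, 159 and 332 CPM for vehicle and 0.85, 4.82 and 8.68 CPM for ginkgetin, without overlap (log2 fold change -6.02 ± 0.77 SE by edgeR, adjusted p = 0.0061). Kupffer-like and other macrophage-like cells held 57.0% and 36.3% of the vehicle UMIs. Since macrophage-like cells were also fewer in the ginkgetin libraries, the level within the class is given next. Of the 10 members, 1 was called higher (Timp3) and 4 lower (Timp1, Mmp12, Mmp13 and Mmp19) over all cells, where 12.8% of 14240 genes were called. The replicate block added Mmp2, Mmp8 and Mmp9, at 17.3% of genes called. Single libraries decided some of these calls (edgeR): Timp1 had an adjusted p of 0.0540 without vehicle replicate 2, Mmp12 of 0.0582 without ginkgetin replicate 2, and Mmp19 of 0.0718 without vehicle replicate 1 and 0.0804 without ginkgetin replicate 2. With the cell filter read as UMIs none of the 5 was called, with adjusted p from 0.242 to 0.770.

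**Figure D2:**
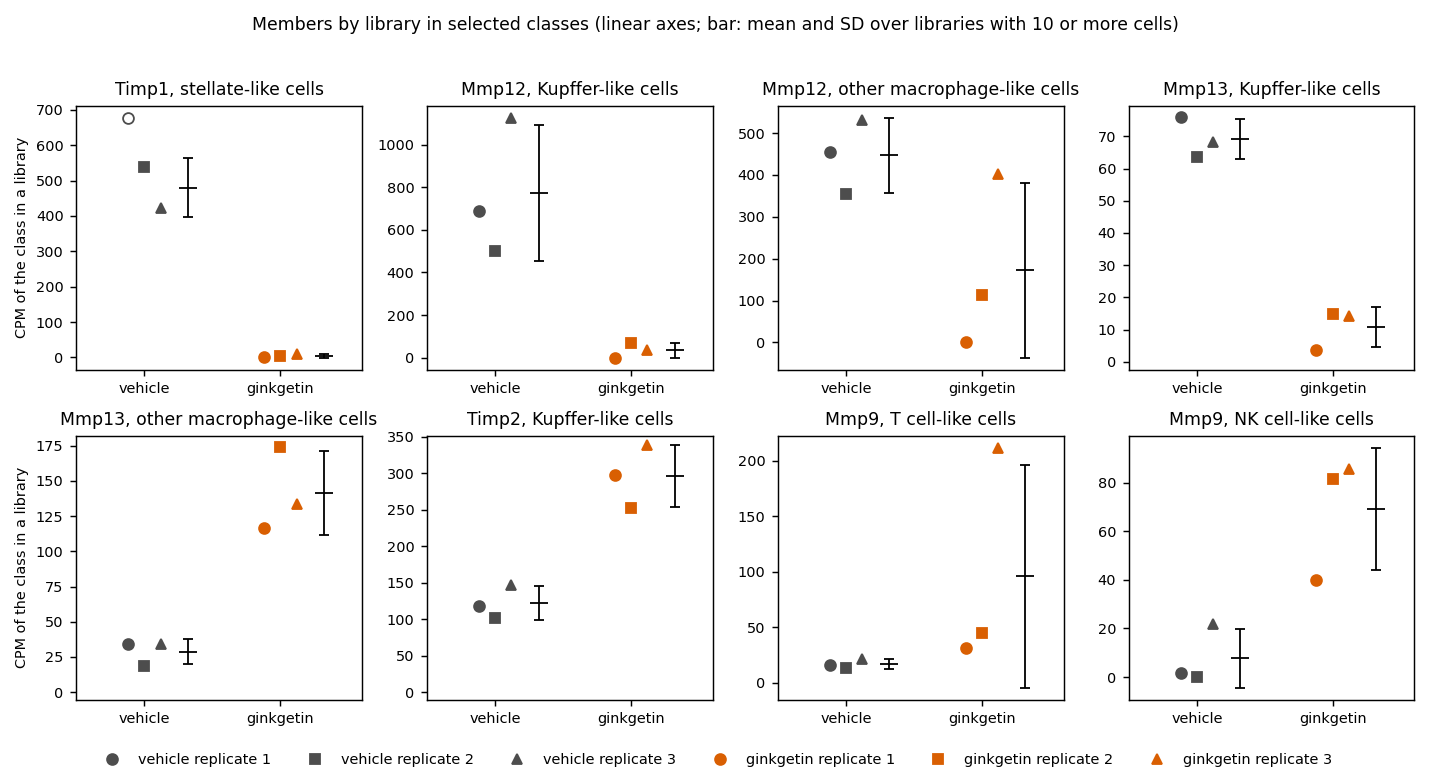
CPM of 5 genes (y axis, linear) in each library of selected classes, with vehicle in grey and ginkgetin in orange. The black bar is the mean and SD over libraries with 10 or more cells of the class, and the open symbol has 6 cells. Mmp13 was lower with ginkgetin in Kupffer-like cells (3.82 to 14.8 CPM) and higher in other macrophage-like cells (117 to 174 CPM).

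Kupffer-like cells, named for markers of the liver's resident macrophages, held Clec4f in 91.1%, Vsig4 in 85.3% and Cd5l in 99.6% of cells, but Timd4 in 36.2%, Cd163 in 25.3% and Marco in 20.3%. The main ginkgetin clusters passed the marker rule for all 7 Kupffer markers, and the main vehicle clusters for 4 (replicates 1 and 2) and 5 (replicate 3), where Trem2 and Gpnmb also passed. The class had Mmp12 at 690.5, 502 and 1128 CPM for vehicle and 0, 69.6 and 35.4 CPM for ginkgetin. The lowest vehicle library was above the highest ginkgetin library, and the 0 rests on 90 cells in which 3 UMIs would have been 11.5 CPM. The log2 fold change was -4.80 ± 0.84 SE (adjusted p = 0.0219 by edgeR). Mmp13, a collagenase that cuts fibrillar collagen, was at 75.9, 63.6 and 68.1 CPM for vehicle and 3.82, 14.8 and 14.3 CPM for ginkgetin, from 1, 7 and 25 UMIs. Its log2 fold change was -2.96 ± 0.32 SE (adjusted p = 0.0121 by edgeR). Marker levels differed in the same cells, with summed macrophage markers at 71602 to 82775 CPM for vehicle and 31906 to 39519 CPM for ginkgetin and monocyte markers at 868 to 1030.0 CPM and 1651 to 1813 CPM, and their part in these results was not tested. Apoe weighs most in the macrophage sum, at 52079.36 CPM over all macrophage-like cells, and was found in 85.74% of other cells. The sum therefore does not show that all its markers moved together. Of 7 members tested in Kupffer-like cells, 1 was called higher and 2 lower, and 8.45% of 9020 genes were called.

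Thinned to 1000 UMIs, 17.9% to 31.7% of vehicle Kupffer-like cells held a UMI of Mmp12, against 0% to 2.23% for ginkgetin. Without thinning these shares were 32.3% to 62.3% and 0% to 2.51%. T cell-like and B cell-like cells, which should lack the gene, gave means of 0.861% and 0.616% for vehicle and 0.054% and 0% for ginkgetin after thinning. The thinned share of Mmp13 was 4.71% to 5.87% for vehicle and 0.47% to 1.53% for ginkgetin (14.0% to 23.1% and 1.11% to 2.54% without thinning). For both genes the exact permutation test over libraries gave p = 0.1, the smallest that 3 against 3 allow (adjusted p = 0.243 over the shares tested).

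The Kupffer-like class was filled by different clusters in the 2 groups. In replicates 1 and 2, a cluster led by Fabp7 and Folr2 held 668 and 376 vehicle cells, and a cluster led by Cxcl13 and Cd163 held 84 and 188 ginkgetin cells. Where a cluster held cells of both groups, the levels did not separate them in the same way. In the Cxcl13 cluster Mmp12 was at 32.5 CPM in 24 cells of vehicle replicate 2, and at 0 and 58.1 CPM for ginkgetin replicates 1 and 2. In the Fabp7 cluster, 11 cells of ginkgetin replicate 2 had 184 CPM of Mmp12 and 138 CPM of Mmp13, against 517 and 65.7 CPM in vehicle replicate 2. Another 6 cells of it, from ginkgetin replicate 1, held no UMI of either gene. In a cluster led by Clec4f and Cd5l, 6 cells of ginkgetin replicate 3 had 1550 CPM of Mmp12 against 1134 CPM in vehicle replicate 3. In a cluster led by Marco and C6, 11 cells of vehicle replicate 3 had 253 CPM of Mmp12 against 8.73 CPM in ginkgetin replicate 3. Which Kupffer-like cells were present and the level in them cannot be told apart in the class sums.

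The Kupffer-like calls of Mmp12, Mmp13 and Timp3 all ended when vehicle replicate 1, vehicle replicate 2 or any single ginkgetin library was left out, with edgeR adjusted p from 0.0503 to 0.129 for Mmp12, 0.0503 to 0.118 for Mmp13 and 0.0531 to 0.152 for Timp3, and kept without vehicle replicate 3. In replicates 1 and 2 alone, a comparison added after seeing the data, the log2 fold changes were -4.27, -3.12 and 4.13 (edgeR adjusted p = 0.0080, 0.0055 and 0.0091), and in replicate 3 alone the log2 ratios of the CPM were -4.99, -2.25 and 3.99. With a cell filter on UMIs in place of genes, Mmp12 had an adjusted p of 0.0532. With the replicate block, which also called Mmp14 (15.1% of genes called), the adjusted p was 4.5e-05 for both Mmp12 and Mmp13. In all macrophage-like cells together, Mmp12 was at 596, 430 and 762 CPM against 0, 81.3 and 92.6 CPM (log2 fold change -3.81 ± 0.91 SE by edgeR, adjusted p = 0.0377), and 2 of 9 members tested, Timp3 and Mmp12, were called where 10.6% of genes were. That call ended for Mmp12 when vehicle replicate 1 (adjusted p = 0.157), vehicle replicate 2 (0.152), ginkgetin replicate 2 (0.139) or ginkgetin replicate 3 (0.0877) was left out, and for Timp3 (log2 fold change 3.43, adjusted p = 0.0210) when vehicle replicate 1 (0.114), vehicle replicate 2 (0.131) or ginkgetin replicate 2 (0.0707) was left out, and with the cell filter read as UMIs (0.0656).

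The other macrophage-like cells (a class added after seeing the data), in clusters led by Trem2, Gpnmb and Ms4a7, gave another pattern. Mmp13 was at 34.2, 18.2 and 34.0 CPM for vehicle and 117, 174 and 133 CPM for ginkgetin, so that every ginkgetin library was above every vehicle library. Marker levels differed in the same cells, with summed macrophage markers at 72588 to 96729 CPM for vehicle and 42336 to 55714 CPM for ginkgetin and monocyte markers at 563 to 774 CPM and 1066 to 1365 CPM, and their part in the result was not tested. Apoe weighs most in this macrophage sum too, at 64728.04 CPM over all cells of the class. The ginkgetin values of Mmp13 rest on 8, 31 and 43 UMIs in 13, 38 and 36 cells, against 286 to 727 vehicle cells. The log2 fold change was 2.01 ± 0.32 SE (adjusted p = 0.0551 by edgeR), which missed the threshold. Mmp12 in the same cells was at 455, 354 and 532 CPM for vehicle and 0, 112 and 403 CPM for ginkgetin, with overlap (log2 fold change -1.59 ± 0.80 SE by edgeR, adjusted p = 0.363). By edgeR none of 6 members tested was called where 0.0891% of 7855 genes were. An unadjusted p under 0.05 was found for 3 of them, and for 1316 of all 7855 genes. DESeq2 called Timp3 and Mmp13 (adjusted p = 0.0130 and 9.4e-06). With the replicate block Mmp13, Mmp12 and Timp3 were called (adjusted p = 6.8e-08, 1.9e-05 and 0.0012), at 6.24% of genes called. Mmp13 was also called without vehicle replicate 3 (log2 fold change 2.24, adjusted p = 0.0334) and in replicates 1 and 2 alone (2.25, adjusted p = 0.0072), and its log2 ratio in replicate 3 alone was 1.97.

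The thinned share of cells with a UMI of Mmp13 was 2.15% to 2.80% for vehicle and 13.2% to 18.9% for ginkgetin in these cells, and without thinning 9.09% to 14.2% and 46.2% to 47.4%, although the median depth was lower with ginkgetin (3569.5 to 6904.5 against 8661 to 15020 UMIs). The level of Mmp13 in Kupffer-like over other macrophage-like cells, as a log2 ratio within each library (pseudocount 1 CPM), was 1.13, 1.75 and 0.98 for vehicle and -4.61, -3.47 and -3.14 for ginkgetin. The sign was thus opposite in every library of the 2 groups, which restates the 2 non-overlapping differences and is given with no test. Mmp14 was at 56.7, 48.5 and 87.4 CPM for vehicle and 117, 124 and 109 CPM for ginkgetin in these cells (log2 fold change 0.55, edgeR adjusted p = 0.358), and Mmp2 at 5.67, 3.65 and 8.18 CPM against 14.6, 22.5 and 15.5 CPM, the ginkgetin values from 1, 4 and 5 UMIs (log2 fold change 1.26, edgeR adjusted p = 0.284). Neither gene passed the test, and neither pair of groups overlapped. Timp2 was at 155, 161 and 239.6 CPM against 175, 247 and 226 CPM, where the scaling of the fit turned the sign (log2 fold change -0.05, edgeR adjusted p = 0.980).

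Mmp8, the collagenase that neutrophils store in granules, was mainly found in monocyte-like cells, which held 65.8% of its vehicle and 64.3% of its ginkgetin UMIs. Its level there was 26.5, 24.5 and 37.4 CPM for vehicle and 0, 9.76 and 33.2 CPM for ginkgetin. Ginkgetin replicate 3 lay inside the vehicle range, and the log2 fold change was -1.12 ± 0.68 SE (adjusted p = 0.478 by edgeR). In replicates 1 and 2, the cluster led by Plac8 and Chil3 held 807 of 888 and 454 of 496 vehicle cells. It held 84 of 117 and 54 of 206 ginkgetin cells. Over all libraries Mmp8 was at 25.08 CPM in it, and at 0 and 13.09 CPM in the clusters led by Ace and Fn1. All monocyte-like cells of replicate 3 lay in a cluster led by Chil3. Makeup and level cannot be told apart in the class sums of replicates 1 and 2. Neutrophil-like cells were too few for a test, with 2, 1 and 24 cells for vehicle and 0, 6 and 5 for ginkgetin. In the libraries with 5 or more of them Mmp8 was at 139 CPM in vehicle replicate 3 and at 29.6 and 134.7 CPM in ginkgetin replicates 2 and 3.

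The other members in monocyte-like cells did not pass the test either. Mmp14 was at 45.7, 44.3 and 45.1 CPM for vehicle and 38.5, 18.4 and 9.22 CPM for ginkgetin, without overlap (log2 fold change -1.14 ± 0.51 SE by edgeR, adjusted p = 0.358). Mmp19 was at 9.94, 5.80 and 11.4 CPM against 5.02, 5.42 and 3.69 CPM, also without overlap (log2 fold change -1.06 ± 0.42 SE by edgeR, adjusted p = 0.311). Over all libraries Mmp14 was at 47.39 CPM in the Plac8 cluster, and at 6.21 and 1.87 CPM in those led by Ace and Fn1. Mmp19 was at 8.44, 3.11 and 7.48 CPM there. The part of this makeup, and of RNA from other cell types, in the monocyte-like differences was not tested. Of the 5 members tested none was called, and 0.0357% of 8397 genes were called. An unadjusted p under 0.05 was found for 1 member, and for 1241 of all 8397 genes. With the replicate block Mmp12 was called (log2 fold change -2.05, adjusted p = 0.0418), at 3.38% of genes called, but not with a block on the barcode set (adjusted p = 0.0806) or by DESeq2 (0.720).

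Mmp9, the gelatinase known from neutrophils and macrophages, had a large share of its UMIs in T cell-like cells, at 64.6%, 58.5% and 25.6% in the 3 vehicle and 87.7%, 59.2% and 78.1% in the 3 ginkgetin libraries. In vehicle replicate 3 neutrophil-like cells held more, 31.4%. Its level in T cell-like cells was 16.0, 13.024 and 21.6 CPM for vehicle and 30.9, 45.1 and 211 CPM for ginkgetin, without overlap and with ginkgetin replicate 3 far above the others (log2 fold change 2.31 ± 0.58 SE by edgeR, adjusted p = 0.348). NK cell-like cells had 1.498, 0 and 21.8 CPM against 40.1, 81.7 and 85.5 CPM, again without overlap (log2 fold change 2.83 ± 0.75 SE by edgeR, adjusted p = 0.413). B cell-like cells had 0 to 3.70 CPM. Both comparisons were added after seeing the data. In replicates 1 and 2 alone the log2 fold changes were 1.49 in T cell-like and 5.67 in NK cell-like cells (edgeR adjusted p = 0.277 and 0.126), and in replicate 3 alone the log2 ratios of the CPM were 3.29 and 1.98.

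The T cell-like test called none of 9597 genes (0%) by edgeR, with 1040 at an unadjusted p under 0.05, while DESeq2 called 107 and the replicate block 71. The replicate block (0.74% of genes in T cell-like and 1.34% in NK cell-like cells) gave Mmp9 an adjusted p of 0.0487 and 0.0221. A block on the barcode set gave 0.0566 and 0.0271, and DESeq2 0.0035 and 0.718, so the settings did not call the same class. Without the block, 0.0568% of 5284 genes were called in NK cell-like cells. The Mmp9 UMIs came from few clusters. In the T cell-like cluster led by Il4, Cd40lg and Cxcr6 the level was 62.3 and 56.9 CPM in vehicle replicates 1 and 2 and 106 and 119 CPM in ginkgetin replicates 1 and 2. This cluster held 209 of 1133 and 121 of 629 cells of the class for vehicle, and 243 of 1103 and 372 of 966 for ginkgetin. In the cluster led by Trac, Lyst and Il2rb it was 163 CPM in vehicle replicate 3 and 363 CPM in ginkgetin replicate 3, with 7.84% and 56.5% of the class. Level and makeup thus both differed, and no test was made within clusters. The thinned share of T cell-like cells with a UMI of Mmp9 was 1.20% to 1.89% for vehicle and 3.18% to 17.4% for ginkgetin (exact permutation p = 0.1, the smallest possible), and the unthinned share 3.18% to 5.53% and 7.71% to 42.8%.

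In the libraries with 5 or more neutrophil-like cells, these had an Mmp9 level of 337 CPM in vehicle replicate 3 and 266 and 808 CPM in ginkgetin replicates 2 and 3, on 24, 6 and 5 cells. The 24 vehicle cells carried macrophage markers, Apoe included, at 50241 CPM, against 2365 and 9946 CPM in the ginkgetin cells, and a marker gate per cell kept 9, 5 and 4 neutrophil-like cells in these libraries, so the values are not of like cells. In Kupffer-like cells Mmp9 was at 1.82, 2.42 and 10.3 CPM for vehicle and 19.1, 14.8 and 11.4 CPM for ginkgetin, from 5 to 20 UMIs per ginkgetin library (log2 fold change 1.14 ± 0.70 SE by edgeR, adjusted p = 0.313). Without vehicle replicate 3, its highest vehicle library, the log2 fold change was 2.17 and the adjusted p 0.0391.

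Mmp2, the gelatinase of mesenchymal cells, was at 164 and 350.0 CPM in stellate-like cells of vehicle replicates 2 and 3 and at 94.3, 94.2 and 132 CPM for ginkgetin. The groups did not overlap, and vehicle replicate 1, with 6 cells, had 162 CPM. The log2 fold change was -1.34 ± 0.42 SE (adjusted p = 0.604 by edgeR). Fibroblast-like cells had 231, 147 and 222 CPM for vehicle and 174, 157 and 435.5 CPM for ginkgetin, where 1 ginkgetin library, replicate 3, had 10 cells or more, so no test was made. Stellate-like cells held 14.7%, 48.3% and 48.4% of the Mmp2 UMIs in the vehicle and 41.7%, 77.1% and 25.9% in the ginkgetin libraries. Fibroblast-like cells held 9.33%, 13.8% and 8.33% in the vehicle and 25%, 8.57% and 67.9% in the ginkgetin libraries, so that they exceeded stellate-like cells in ginkgetin replicate 3 and in no other library. Nearly all fibroblast-like cells had high doublet scores, as given above. Macrophages held much of the rest for vehicle, with 36.0%, 12.1% and 10.6% in Kupffer-like and 36.0%, 17.2% and 29.2% in other macrophage-like cells, against 0% to 16.7% and 3.09% to 11.4% for ginkgetin.

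Mmp14, the membrane-type MMP that activates the Mmp2 precursor, was found in endothelial-like, stellate-like, fibroblast-like and macrophage-like cells. Endothelial-like cells held 36.2%, 24.6% and 26.0% of its UMIs in the vehicle and 84.0%, 86.5% and 85.4% in the ginkgetin libraries, beside the difference in their share of the cells given above. Endothelial-like cells had 136, 113 and 193 CPM for vehicle and 136, 117 and 180.0 CPM for ginkgetin, with overlap (log2 fold change -0.17 ± 0.18 SE by edgeR, adjusted p = 0.760). None of the 3 members tested in endothelial-like cells was called, and none had an unadjusted p under 0.05, where 0.681% of 10424 genes were called. Stellate-like cells had 111 and 141 CPM against 56.6, 83.7 and 101 CPM, without overlap (log2 fold change -0.67 ± 0.36 SE by edgeR, adjusted p = 0.768). In Kupffer-like cells Mmp14 was at 33.8, 42.1 and 59.7 CPM for vehicle and 7.64, 35.9 and 30.3 CPM for ginkgetin (log2 fold change -1.20 ± 0.37 SE by edgeR, adjusted p = 0.0795), and the replicate block gave an adjusted p of 0.0041. Over all cells the sign for Mmp14 depended on the scaling, with 40.8, 38.8 and 58.1 CPM against 41.9, 53.4 and 73.2 CPM and a log2 fold change of -0.04.

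Mmp19, an MMP of basement membrane substrates, was found in few UMIs, 615 for vehicle and 105 for ginkgetin. Fibroblast-like cells had 0, 18.4 and 34.1 CPM for vehicle and 0, 209 and 63.3 CPM for ginkgetin, from 0, 1 and 4 UMIs and 0, 4 and 16 UMIs, and no test was made there. Kupffer-like cells held 40.5% of its vehicle UMIs, at 14.9, 7.25 and 17.5 CPM, and the ginkgetin libraries lay within that range at 11.5, 8.44 and 11.4 CPM (log2 fold change -0.79 ± 0.40 SE by edgeR, adjusted p = 0.226). Over all cells it was at 5.95, 3.92 and 7.63 CPM for vehicle and 0.765, 1.53 and 2.43 CPM for ginkgetin, without overlap (log2 fold change -2.24 ± 0.39 SE by edgeR, adjusted p = 0.0132). The fall over all cells stands beside the smaller macrophage-like share given above.

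**Figure D3:**
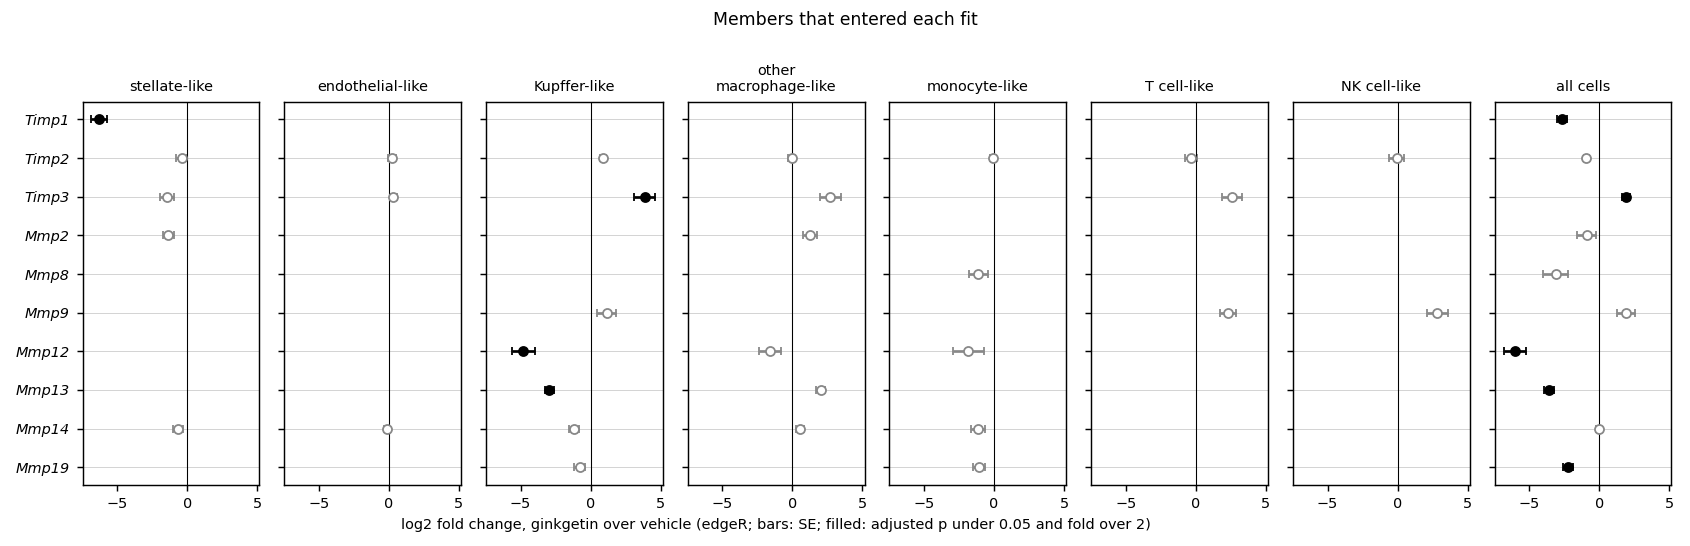
Log2 fold change of ginkgetin over vehicle (x axis) for each gene that entered the fit of a class (edgeR, bars are SE), with filled points for calls. Timp1 in stellate-like cells (-6.33) and Mmp12 and Mmp13 in Kupffer-like cells (-4.80 and -2.96) were called lower, Timp3 in Kupffer-like cells (3.84) higher, and Mmp13 in other macrophage-like cells (2.01) was not called.

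**Figure D4:**
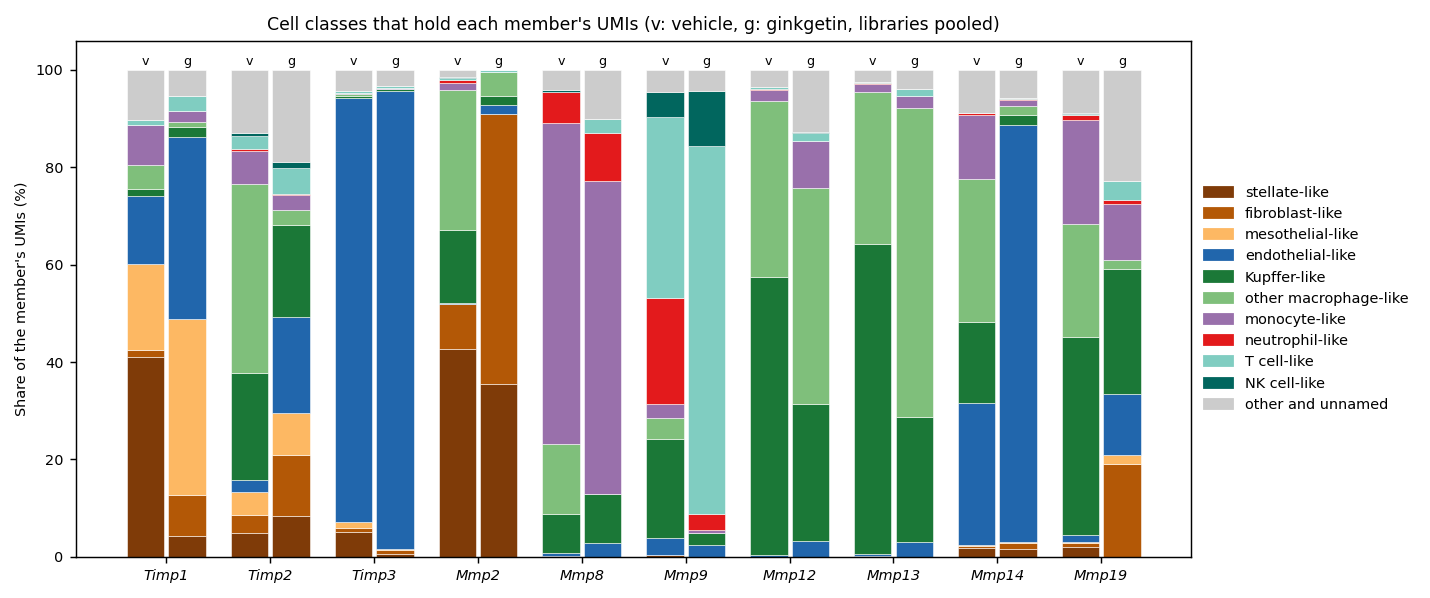
Share of each gene's UMIs (y axis, in percent) held by each cell class, with the 3 vehicle libraries pooled in the left bar of each pair and the 3 ginkgetin libraries in the right. Endothelial-like cells held 87.1% and 94.1% of Timp3, and T cell-like cells held 37.2% and 75.5% of Mmp9, where the vehicle libraries gave 64.6%, 58.5% and 25.6%.

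Each member was compared with all genes of a mean of 10 CPM or more over 76 class-by-library sums, by Pearson's r of log2(CPM + 1), a description over points that share libraries. Timp1 was most like Fxyd6 (r = 0.84), Plat and Ptgfrn, Timp2 like Lrpap1 (0.844), Itgav and Plxna1, and Timp3 like Dlc1 (0.954), Amotl1 and Nr2f2. Mmp2 was most like Olfml3 (0.909), Pdgfra and Gdf10, Mmp14 like App (0.915) and Camk1, and Mmp19 like Pid1 (0.709), Cd302 and Cebpb. For the macrophage and leukocyte members the nearest genes were Trem2 (0.823), Gdf3 and Ms4a7 for Mmp12, Cd207 (0.882), C3ar1 and Lilra5 for Mmp13, Clec4e (0.782), Chil3 and Clec4d for Mmp8, and Il18rap (0.676), Klrc2 and Vps37b for Mmp9.

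A further 4 lists of related genes were read from the same fits. Of 17 other MMPs and Timp4, 12 were in the tables, and 1 was tested in Kupffer-like cells, Mmp27, which fell from 59.5 ± 13.8 to 18.1 ± 6.31 CPM (SD, n = 3 each, log2 fold change -2.05, edgeR adjusted p = 0.0121). Of 29 ADAM and ADAMTS proteases, 9 were tested in Kupffer-like cells, where Adam8, a leukocyte protease, fell (24.7 ± 5.99 to 2.55 ± 2.24 CPM, log2 fold change -3.46, edgeR adjusted p = 0.0138) and Adam19 and Adamts1 rose (log2 fold changes 2.89 and 3.48). Of 21 genes that activate or control MMPs, 9 were tested there, of which 2 fell, among them Plaur, the urokinase receptor (log2 fold change -2.61, edgeR adjusted p = 0.0245), and none rose. Of 20 matrix substrates, 4 were tested there and Sparc rose (log2 fold change 2.78). These counts stand beside 8.45% of all genes called in Kupffer-like cells, of which 0 to 2 were called without vehicle replicate 1, vehicle replicate 2 or any single ginkgetin library. The medians of these lists were -2.05, 0.27, -0.33 and 1.90, against 0.04 over all genes tested. In all macrophage-like cells Adam23, Col4a2, Hspg2 and Nid1 of these lists were also called, all higher (log2 fold changes 3.62, 2.81, 4.08 and 2.18), where 10.6% of all genes were called and 0 when vehicle replicate 1, vehicle replicate 2 or ginkgetin replicate 2 was left out. Adam23 was also among the leading genes of an endothelial-like cluster, and the summed endothelial markers in all macrophage-like cells were at 279 to 323 CPM for vehicle and 993 to 1986 CPM for ginkgetin, whose part in these calls was not tested.

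In endothelial-like cells 2 of the 14 control genes tested were called, both lower, where 0.681% of all genes were. None of the 71 genes called in these cells was called when any single library was left out. Plaur was at 38.4 ± 9.99 CPM for vehicle and 7.73 ± 1.76 CPM for ginkgetin (log2 fold change -2.47, edgeR adjusted p = 0.0165), and Itgb3, an integrin subunit, at 55.0 ± 14.3 and 22.6 ± 0.612 CPM (log2 fold change -1.41, edgeR adjusted p = 0.0484). Summed macrophage markers in endothelial-like cells were at 4418 to 5062 CPM for vehicle and 2937 to 3421 CPM for ginkgetin, and monocyte markers at 323 to 614 CPM and 164 to 315 CPM, whose part in the Plaur difference was not tested. The macrophage sum includes Apoe, which was found in most cells outside macrophage-like cells, as given above. In stellate-like cells none of the 13 control genes and 19 substrates tested was called by edgeR, and 7 and 6 of them had an unadjusted p under 0.05. Of all 5115 genes tested there, 366 had one. With the replicate block, under which 3.26% of all genes were called, 6 control genes and 2 substrates were called there, among them Col1a1 (2048 ± 1175 to 266 ± 61.8 CPM, log2 fold change -3.05), Plat (-2.96) and Serpine2 (-3.54) lower (block adjusted p = 5.6e-05, 1.1e-05 and 1.8e-07) and Reck, a membrane inhibitor of MMPs, higher (42.0 ± 23.4 to 124.9 ± 70.0 CPM, log2 fold change 1.65, block adjusted p = 0.0040). These fold changes are without the block. The blocked calls rest on 2 vehicle libraries and their same-numbered ginkgetin libraries, too few to measure the spread well.

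Over all kept cells, where 12.8% of genes were called (none with the cell filter read as UMIs), 2 of 8 other MMPs tested were called, Mmp7 and Mmp27, both lower (log2 fold changes -2.98 and -4.37, edgeR adjusted p = 0.0187 and 0.0069). Of 22 ADAM and ADAMTS proteases, Adam8 was lower (-1.46) and Adam12, Adam23, Adamts1 and Adamts7 were higher (1.82, 1.90, 1.37 and 1.69). Of 20 control genes 6 were lower and none higher, those of lowest p being Plaur (-1.68), Itgav (-1.17) and Cst3 (-1.34). Of 20 substrates, the basement membrane genes Col4a1, Col4a2, Hspg2 and Nid1 were higher (1.21, 1.05, 2.14 and 1.38) and Vcan was lower (-3.05). The endothelial-like and macrophage-like shares of the cells differed between the groups, as given above.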

How the data were processed

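Single-cell RNA sequencing of liver non-parenchymal cells gave 6 libraries, 3 for vehicle and 3 for ginkgetin, grouped by the sample labels. The authors deposited tables of raw UMI counts per gene and barcode, and the submitters' processing notes name the builds GRCm38 and mm10. Whether reads were counted by strand is not given in the sources used here, so for Timp1, Timp3, Mmp12 and Mmp19, which overlap genes of the opposite strand, and Timp2, which overlaps Cep295nl, reads of the overlapping genes may not be told apart.

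Barcodes with 250 to 5000 genes detected and under 5% mitochondrial UMIs were kept (27544 of 33168). The study's methods state 250 to 5000 as a limit on UMIs. That reading kept 16821 cells and was run as an alternative, not as the main filter. Cells were scaled to 10000 UMIs and clustered (2000 variable genes, 30 components, 15 neighbours, Leiden resolution 2, scikit-learn 1.9.0, leidenalg 0.10.2, igraph 0.11.9) without the 10 members and the listed genes, giving 57 clusters. A second pass over myeloid cells outside Kupffer-like clusters gave the 1 neutrophil-like cluster. A cluster took a class name from at least 3 markers found in 25% of its cells at a fold of 2, and Kupffer-like clusters held at least 4 of 7 Kupffer markers. No name was given to 1092 cells. Cells were not removed as doublets in the results given, and an alternative left out the 5% with the highest doublet scores.

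Counts were summed per library and class of 10 cells or more and tested with edgeR 4.0.16 (R 4.3.3, TMM factors, filterByExpr, quasi-likelihood test, Benjamini-Hochberg adjustment), with a call at an adjusted p under 0.05 and a fold over 2. Replicate 1 of vehicle, with 6 stellate-like cells, did not enter that fit. Shares of cells were compared with an exact two-sided permutation test (scipy 1.17.1). Alternatives were DESeq2 1.42.0, its size factors, no gene filter, a block on the replicate number or on the barcode set, a marker gate per cell, both readings of the filter, the doublet scores, each library left out, and thinning to 2000 UMIs or none. Replicates 1 and 2 alone, and the other macrophage-like, T cell-like and NK cell-like comparisons, were added after seeing the data. Deviations of same-numbered libraries from their group means correlated at r = 0.255 to 0.909, over 0.1 in every pair. On that basis the numbers were read as pairing the libraries, from the data and not from the labels. Unlike-numbered libraries of replicates 1 and 2 correlated about as much, at 0.618 and 0.666 in endothelial-like cells against 0.661 and 0.634. Over all cells they correlated less, at 0.535 and 0.509 against 0.692 and 0.672. Within classes the data set replicate 3 apart but do not show that replicates 1 and 2 pair by number. On simulated counts with 4-fold changes the test recovered 49.5% of changed genes in macrophage-like, 11.8% in stellate-like and 64.3% in endothelial-like cells.

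Named were all 10 members, each listed gene called in a class (with over 5 in a class and list, the 3 of lowest p), and the 3 genes most like each member. Some items that this rule names are not reported here. The members and lists were chosen with earlier results of these data known.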

Additional observations from a re-analysis of the deposited data

Results flagged for a closer look

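The direction of ginkgetin against vehicle was opposite in different cell classes, without overlap between the tested libraries in either class, for Timp3, Mmp2, Mmp14 and Mmp13. How many of all genes show such a pattern was not computed, so it is not shown to be unusual. Vehicle replicate 1, with 6 stellate-like cells, did not enter, and its Timp3 level of 221 CPM lay inside the ginkgetin range. Timp3 had a log2 fold change of -1.48 in stellate-like cells and of 3.84, 2.69 and 2.59 in Kupffer-like, other macrophage-like and T cell-like cells. Summed endothelial markers were also higher with ginkgetin in these cells, at 335 to 410.0 CPM against 1134 to 2242 CPM in Kupffer-like, 215 to 268 CPM against 397 to 1304 CPM in other macrophage-like and 81.0 to 102 CPM against 239 to 994 CPM in T cell-like cells, and their part in the result was not tested. Mmp2 had -1.34 in stellate-like and 1.26 in other macrophage-like cells. Mmp14 had -0.67 in stellate-like, -1.14 in monocyte-like and 0.55 in other macrophage-like cells. Mmp13 had -2.96 in Kupffer-like and 2.01 in other macrophage-like cells. The differences between classes were not tested, since these pairs were picked for groups that did not overlap and lay in opposite directions, which fixes the result of a test on the same values.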

How the results depend on the processing

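Of the log2 fold changes of members under other settings, 567 kept their direction and side of the threshold, 40 were newly called, 37 lost a call and 14 changed sign. Among the shares of cells, for 13 chosen pairs of member and class and with no threshold set, 124 kept their sign and 5 changed it. The cause was not tested for any of these. Genes called in stellate-like cells (1) were 106 with no gene filter, 19 with DESeq2, 167 with the replicate block, 157 with the barcode-set block and 0 to 14 with single libraries left out. For macrophage-like cells (1075) they were 1633 with the replicate block, 1670 with the set block, 152 with the filter read as UMIs, 617 with the marker gate and 0 to 1167 without single libraries. For endothelial-like cells (71) they were 22 with no gene filter, 321 with DESeq2, 444 and 458 with the 2 blocks, 37 with the filter read as UMIs, 22 with the gate, 350 in replicates 1 and 2 alone and 0 to 1 without single libraries. For monocyte-like cells (3) they were 0 with RLE factors, with no gene filter, with the UMI reading, without the highest doublet scores and without any single library, 1 with the gate, 165 with DESeq2, and 284 and 313 with the blocks. For Kupffer-like cells (762) they were 1361 and 1430 with the blocks, 21 with the UMI reading and 0 to 1067 without single libraries. For other macrophage-like cells (7) they were 43 with no gene filter, 301 with DESeq2, 490 and 453 with the blocks, 0 with the gate, 27 without the highest doublet scores, 186 in replicates 1 and 2 alone and 0 to 85 without single libraries. T cell-like cells (0) had 107 with DESeq2 and 71 and 30 with the blocks. NK cell-like cells (3) had 5 with no gene filter, 9 with DESeq2, 71 and 78 with the blocks, and 0 with the gate, in replicates 1 and 2 alone and without any single library. All cells (1822) had 0 with the UMI reading and 626 to 1556 without single libraries. Changes of sign in log2 fold changes, all in members not called, were Mmp2 in macrophage-like cells (-0.665 to 0.202 without single libraries, 0.481 in replicates 1 and 2 alone), Timp2 in endothelial-like (-0.038 to 0.45 without single libraries, -0.027 in replicates 1 and 2), monocyte-like (-0.219 to 0.036 without single libraries, 0.021 in replicates 1 and 2) and other macrophage-like cells (0.153 with the gate, -0.27 to 0.292 without single libraries, 0.217 in replicates 1 and 2), Timp2 over all cells (0.33 with the UMI reading), and Mmp14 over all cells (0.276 with the UMI reading, -0.16 to 0.123 without single libraries, 0.009 in replicates 1 and 2). Among shares, that of Mmp14 in endothelial-like cells differed by -1.564 to 1.661 points without single libraries and by 0.155 in replicates 1 and 2, and that of Timp2 in Kupffer-like cells by -14.265 without thinning. Replicates 1 and 2 alone was a setting chosen after seeing the data. Fibroblast-like and neutrophil-like tests were not run, since too few libraries held 10 cells, the UMI reading gave no value for stellate-like and other macrophage-like cells, and leaving out the highest doublet scores gave none for stellate-like cells, so the Timp1 call there was not checked against doublets. It left 0 to 3 fibroblast-like cells per library, so their levels and shares were not checked either.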
